A study of Mus musculus with 9 samples.

Results

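The 97 genes described here are nuclear genes for subunits and assembly factors of the mitochondrial respiratory chain. They were chosen by name alone, as every gene whose symbol begins with Nduf, Sdha, Sdhb, Sdhc, Sdhd, Uqcr, Cox4i, Cox5, Cox6, Cox7, Cox8 or Atp5, pseudogenes left out, and are 97 of the 32287 genes counted. Nuclear genes of the chain with other symbols, such as Cyc1 of complex III, the electron carrier Cycs and Usmg5, are not among them. By role they comprise 36 subunits of complex I, 4 of complex II, 8 of complex III, 20 of complex IV, 16 of the ATP synthase and 13 assembly factors, which help to build a complex without staying in it. The 13 protein-coding genes of the mitochondrial genome (mt- genes) were counted for comparison.

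The respiratory chain passes electrons from nutrients to oxygen through complexes I to IV and pumps protons across the inner mitochondrial membrane, and the ATP synthase uses the returning protons to make ATP. Complexes I, III and IV and the ATP synthase join subunits from both genomes, whereas complex II is made from nuclear genes only. Several complex IV subunits exist as paralogues used in particular tissues. Quiescent neural stem cells and astrocytes are known for a strongly glycolytic and lipid-burning metabolism, and the passage to neurons is known for a growing reliance on oxidative phosphorylation.

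Cells came from male TiCY mice, which carry the transgene Nr2e1-Cre/ERT2 (Tlx being the other name of Nr2e1), an EYFP reporter in ROSA26 and the Fas tm1Cgn allele, so that tamoxifen marks with eYFP the neural stem cells (NSCs) that express Tlx, and what they give rise to. All 4 groups share these alleles, controls included, and their strain names begin with B6. The knockout (KO) groups carried in addition Ifnar1 tm1Agt and an Ifngr1 allele of the same series, which target the receptors of type I and type II interferon. WT young mice were 16 weeks old and given tamoxifen at 10 weeks, WT old mice 80 weeks (tamoxifen at 71), KO young mice 16 weeks (at 7) and KO old mice 92 to 105 weeks (at 85 and 98). The stated chase was 6 weeks in WT young and 9 weeks in the other groups, and the stated ages of KO old mice do not match their tamoxifen ages plus that chase. Cells were sorted from the ventricular-subventricular zone (vSVZ) as eYFP+ and as GLAST+ cells, and as eYFP+ and eYFP-/PSANCAM low cells from a pool of olfactory bulb, striatum and rostral migratory stream, and CD45+, Ter119+ and O4+ cells were gated out. Each group was 2 mice in 1 droplet reaction, and hashtag antibodies named the mouse, so group and reaction cannot be told apart.

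Filters left 5916 and 2423 cells in WT young and WT old and 6638 and 3413 in KO young and KO old, with median depths of 5067, 7437, 7133 and 7091 unique molecular identifiers (UMIs) in that order, and 18055 cells after removal of predicted doublets. Of these, 60 carried a barcode also found in another library. Clusters were built without the genes described here, the mt- genes, other respiratory chain genes or interferon genes, and were named from cell type markers. They gave 5824 astroglia-like cells (astrocytes and quiescent NSCs), 567 activated NSC-like, 1200 transit-amplifying progenitor (TAP)-like, 6325 neuroblast-like, 641 neuron-like, 2024 olfactory ensheathing glia-like, 329 microglia-like, 134 oligodendrocyte-like, 104 endothelial-like and 82 oligodendrocyte precursor (OPC)-like cells. A cluster of 549 cells led by DNA replication genes was left unnamed. The microglia-like cells passed the CD45 gate, and their defining genes were present, with 7 of 8 markers raised. Ifngr1 was at 46.9 and 85.4 CPM (UMIs per 1000000 UMIs) in the WT libraries, young first, against 2.88 and 4.40 in the KO libraries, and Ifnar1 at 21.2 and 28.6 against 8.08 and 6.56, as the labels state. Where 4 values follow a class or gene, the WT libraries come first and then the KO libraries, each with the young one before the old one.

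The summed level of the 97 genes set neuron-like, olfactory ensheathing glia-like and microglia-like cells apart from the other named classes, which overlapped with neighbours in level. It was highest in neuron-like cells, at 41108, 32876, 42104 and 39957 CPM, a mean of 39011 ± 4183 (SD, n = 4 libraries). Every neuron-like library lay above every library of the other named classes, and the WT old value alone fell within the range of the replicating cluster (32752 ± 833). TAP-like cells stood at 30320 ± 1880, activated NSC-like cells at 29650 ± 1193, astroglia-like cells at 28088 ± 993 and neuroblast-like cells at 26857 ± 1046, and in this order each class overlapped with the next. This order was not stable. With mt- and ribosomal genes left out of the total, neuroblast-like cells (31172) lay above astroglia-like cells (29923) and activated NSC-like (35432) above TAP-like cells (35017). With cells of at least 2000 UMIs both pairs also turned (28169 against 28010, and 29867 against 29690), and with doublets kept the latter pair did (30061 against 29072). The OPC-like class had enough cells in 1 library only, at 28707 CPM.

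Lower summed levels were measured in the remaining glial and the endothelial-like classes. Oligodendrocyte-like cells stood at 24112 ± 547 (n = 2 libraries) and endothelial-like cells at 23883 ± 1527 (n = 3), which overlapped. Olfactory ensheathing glia-like cells lay below them, at 20615, 19191, 19124 and 19366 CPM. Microglia-like cells were lowest, at 10866, 9493, 10607 and 9248 CPM, and overlapped with no other class. The share of UMIs depends on all other transcripts of a cell, and a lower share and fewer respiratory transcripts per cell cannot be told apart here.

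**Figure D1:**
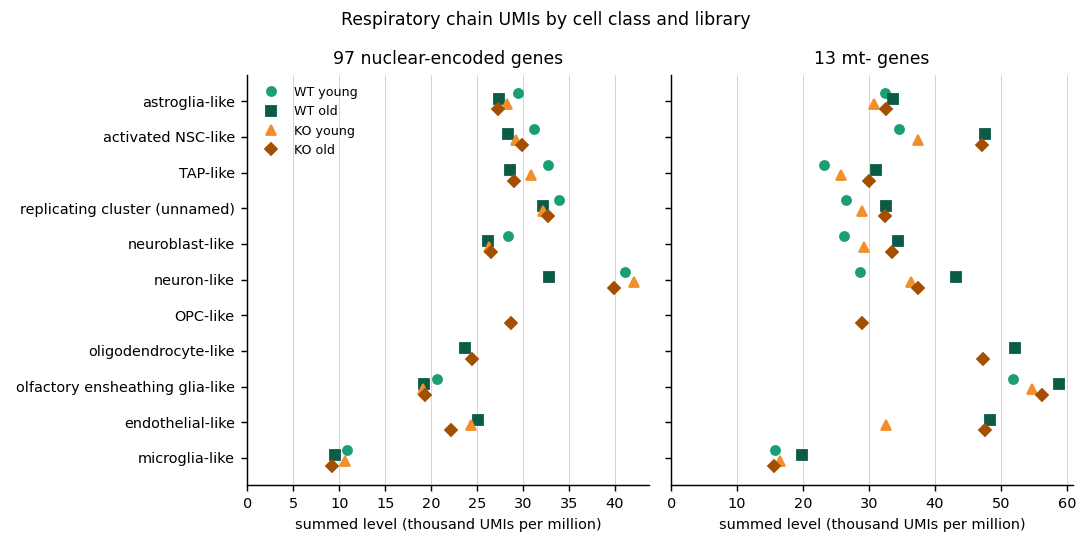
Summed CPM of the 97 nuclear-encoded genes (left, horizontal axis in 1000 CPM) and of the 13 mt- genes (right) for each cell class (rows), with 1 point per library. Neuron-like cells lie highest on the left (32876 to 42104) and microglia-like cells lowest (9248 to 10866). On the right olfactory ensheathing glia-like cells lie highest (51884 to 58758), overlapping with oligodendrocyte-like cells (47272 and 52133).

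Levels of the mt- genes followed another order. Olfactory ensheathing glia-like cells, near the bottom for the nuclear genes, had the highest mean mt- level, between 51884 and 58758 CPM. This range overlapped with oligodendrocyte-like cells, at 52133 CPM in WT old and 47272 in KO old. The ensheathing glia-like cells therefore had only 0.327 to 0.397 nuclear UMIs per mt- UMI. Oligodendrocyte-like cells had 0.455 and 0.518. Neuron-like cells ranged from 0.760 in WT old to 1.43 in WT young and TAP-like cells from 0.922 to 1.41, without overlap with the ensheathing glia. The WT young library had the lowest mt- level and the highest ratio in activated NSC-like, TAP-like, neuroblast-like, neuron-like and olfactory ensheathing glia-like cells. The same held in the replicating cluster. In astroglia-like and microglia-like cells another library had the lowest mt- level. Cells with 10% or more mt- UMIs had been removed, which caps the mt- level of every class, and the part of that cap in the ratios was not tested.

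Complex I subunits summed to 11748 ± 1230 CPM in neuron-like, 9346 ± 438 in astroglia-like and 7651 ± 354 in neuroblast-like cells. Among the 91 genes that passed the count filter of the lineage test described below, neuron-like cells had the highest mean of 10 classes for 53 and microglia-like cells the lowest for 78. Complex II, the succinate dehydrogenase that is also an enzyme of the citric acid cycle, was as high in astroglia-like as in neuron-like cells. It summed to 682 ± 24.0 CPM in astroglia-like, 621 ± 37.1 in activated NSC-like, 497 ± 65.3 in TAP-like, 387 ± 32.8 in neuroblast-like and 666 ± 58.2 in neuron-like cells.

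**Figure D2:**
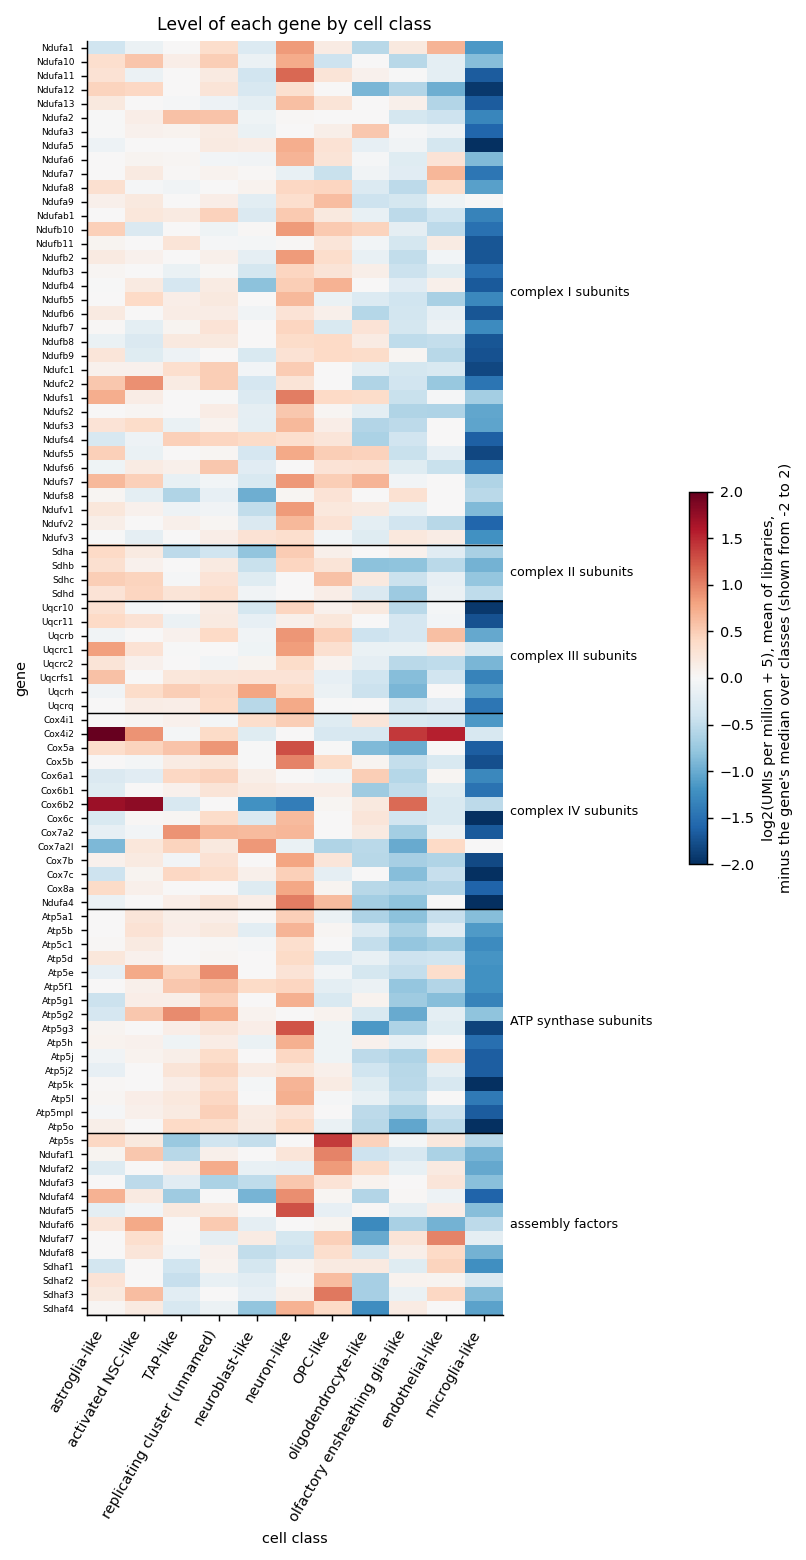
Level of each of the 91 genes with enough counts (rows, grouped by role) in each class (columns), as the log2 of the mean CPM plus 5 minus the median of the row, with colours limited to 2 in either direction. The neuron-like column is mostly red and the microglia-like column mostly blue. Cox4i2 stands out in the astroglia-like column, and Cox6b2 in both the astroglia-like and the activated NSC-like columns.

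UMIs were summed per class and library, and classes adjacent on the known path of the neurogenic lineage were compared within libraries with edgeR. It scales each sum so that the bulk of genes stays level (TMM factors). The astroglia-like class holds astrocytes as well as quiescent NSCs. Steps along this path are differences between classes, and descent of the cells of a class from those of another was not tested. Cytosolic ribosomal protein genes, a large part of all UMIs, moved strongly along this path (75 of 75 higher in activated NSC-like than in astroglia-like cells, median log2 difference 1.63), so that the scale itself was a choice. Counts of the respiratory genes are therefore read beside the share or the median over all 11934 genes, and differences of the respiratory genes are also read relative to that median, which hardly depends on the scale. Adjacent comparisons share a class and are not independent, the comparison of neuroblast-like with astroglia-like cells spans the steps between them, and p-values measure the spread between these libraries or mice only.

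From astroglia-like to activated NSC-like cells, 65 of the 91 genes were lower and 3 higher (edgeR, Benjamini-Hochberg adjusted p under 0.05), against 36.8% lower and 26.5% higher among all genes. Their median log2 difference was −0.36 against −0.14 for all genes, and 73 of 91 lay below the all-gene median. By plain library size the direction of many turned: 18 were lower and 23 higher (background 23.3% and 42.8%), with a median of 0.06 against 0.28 for all genes, so that the gap to all genes was −0.21 on both scales. Of the genes called, 27 changed sign between scales and none was called in the opposite direction. Without the KO young library, 35 were lower and 3 higher.

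With TMM factors 28 of 36 complex I subunits were lower in this step and none was higher. Ndufb10, an accessory subunit of complex I, stood at 422, 355, 364 and 345 CPM in astroglia-like cells and at 232, 179, 203 and 244 in activated NSC-like cells, without overlap (log2 difference −1.21 ± 0.10 SE, adjusted p = 2.3e-10). The core subunit Ndufs1, which holds iron-sulfur clusters, was at 53.3, 45.8, 47.2 and 47.4 against 25.8, 29.3, 35.2 and 33 (−1.07 ± 0.13, adjusted p = 1.1e-07). Both differences kept their sign by library size. All 4 subunits of complex II and 7 of 8 of complex III were lower, among them the Rieske protein Uqcrfs1 (−1.02 ± 0.10) and the core protein Uqcrc1 (−0.98 ± 0.10).

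The 3 genes that were higher were Cox7a2l, Atp5e, the epsilon subunit of the ATP synthase, and Atp5g2, one of 3 genes for its membrane ring. Cox7a2l is described as a factor for supercomplexes of complexes III and IV, and supercomplexes were not measured here. Cox7a2l was at 160, 127, 126 and 123 CPM in astroglia-like and at 303, 303, 309 and 270 in activated NSC-like cells (0.73 ± 0.11, adjusted p = 3.4e-06). Atp5g2 was at 528, 458, 468 and 458 against 998, 793, 895 and 826 (0.46 ± 0.08, adjusted p = 4.1e-05). The classes did not overlap for either gene.

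From activated NSC-like to TAP-like cells the genes moved the other way: 34 were higher and 15 lower, where 24.6% of all genes were higher and 32.4% lower. Relative to the all-gene median of −0.11 they lay 0.24 higher, with 68 of 91 above it. By library size 15 were higher and 24 lower (background 19.2% and 39.4%), so that the median of the genes turned to −0.04 against −0.27 for all genes. With sums per mouse in place of sums per library only 19 passed in all. Subunits of the ATP synthase (8 higher, 0 lower, of 16) and of complex IV (8 and 2 of 14) led, while 6 of 13 assembly factors were lower and 2 higher. Cox7a2, the common form of a complex IV subunit, rose from 563, 435, 505 and 466 CPM to 986, 909, 940 and 1006 (1.13 ± 0.10, adjusted p = 8.9e-10). Cox6a1, another complex IV subunit, rose by 0.81 ± 0.10 and Ndufs4, an accessory subunit of complex I whose loss causes mitochondrial disease, by 0.74 ± 0.09. Ndufaf1, a complex I assembly factor, fell by 1.04 ± 0.18 on the log2 scale, a call lost with sums per mouse.

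From TAP-like to neuroblast-like cells 43 were lower and 5 higher, against 27.9% and 28.2% of all genes, and 78 of 91 lay below the all-gene median of 0.03. Library size left 41 lower and 5 higher. All 4 complex II genes were lower, and 20 of 36 complex I subunits. Atp5g2 returned from 1300, 1104, 1124 and 1153 CPM to 691, 602, 615 and 627 (−0.91 ± 0.08, adjusted p = 1.7e-09), and Uqcrq, a small subunit of complex III, was lower by −0.73 ± 0.11. Cox7a2l rose again, by 0.42 ± 0.11, as did Uqcrh, the hinge protein of complex III, by 0.27 ± 0.10, although its call was lost without the WT young library and with the replicating cluster counted as neuroblast-like. Without the KO young library 20 genes were lower and 4 higher, and with every gene tested irrespective of its count, or with cells of at least 2000 UMIs, 31 passed in all.

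The largest step was the last. From neuroblast-like to neuron-like cells 60 were higher and 4 lower, where 36.7% of all genes were higher and 29.3% lower, at a median of 0.55 against 0.10. Library size gave 63 and 2. Leaving out any library left 53 to 60 in all. In complex I 29 of 36 subunits were higher, in the ATP synthase 11 of 16, in complex III 6 of 8 and in complex IV 7 of 14. Ndufv1, the subunit of complex I that binds NADH, stood at 89.6, 62.7, 83.7 and 69.9 CPM in neuroblast-like and at 232, 182, 204 and 183 in neuron-like cells (1.32 ± 0.09, adjusted p = 4.4e-12). Sdha, the flavoprotein of complex II, went from 77.2, 74.0, 75.2 and 83.4 to 154, 230, 205 and 206 (1.31 ± 0.11, adjusted p = 1.8e-10). For both, the lowest neuron-like library was clearly above the highest neuroblast-like library.

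Further subunits were also higher in neuron-like than in neuroblast-like cells. Ndufs1 differed by 1.4 ± 0.13 (23.5, 17.2, 24.5 and 21.8 CPM in neuroblast-like and 49.7, 63.1, 61.4 and 69.8 in neuron-like cells). The difference was 1.24 ± 0.11 for Cox5a, 1.08 ± 0.09 for Atp5g3, 0.98 ± 0.09 for Cox8a, 0.91 ± 0.11 for Uqcrc1 and 0.84 ± 0.11 for Atp5b, the catalytic beta subunit of the ATP synthase. Among the core subunits followed throughout, Uqcrfs1 alone passed in neither direction. Sdhb, the iron-sulfur subunit of complex II, was higher by 0.84 ± 0.10, Ndufa4 of complex IV by 0.83 ± 0.10 and Atp5a1, the alpha subunit of the ATP synthase, by 0.39 ± 0.10, the last losing its call without the KO young or the KO old library. The largest rises were those of 3 assembly factors, Ndufaf4 and Ndufaf5 for complex I and Sdhaf4 for complex II. Ndufaf4 was at 22.9, 26.8, 22.2 and 20.8 CPM in neuroblast-like and at 90.5, 91.7, 110 and 98.6 in neuron-like cells (2.06 ± 0.15, adjusted p = 1.4e-11). Sdhaf4 rose by 1.59 ± 0.11 and Ndufaf5 by 1.57 ± 0.18. In the opposite direction went Cox7a2l (−1.09 ± 0.11), Uqcrh (−0.48 ± 0.10) and the assembly factor Ndufaf7 (−0.53 ± 0.22), which lost its call without the WT young or the WT old library and whose difference turned to 0.15 with sums per mouse.

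Across the whole path, neuroblast-like cells compared with astroglia-like cells had 69 genes lower and 5 higher, where 45.1% of all genes were lower and 35.7% higher. The median was −0.49 against −0.17, and 69 of 91 lay below the all-gene median. By library size 47 were lower and 15 higher (background 38.7% and 44%), with a gap to all genes of −0.31 on both scales, and 8 called genes changed sign. The roles differed: 31 of 36 complex I subunits, all 4 of complex II, 7 of 8 of complex III and 10 of 13 assembly factors were lower, but 7 of 14 of complex IV and 10 of 16 of the ATP synthase, with 3 complex IV subunits higher. Sdha was at 186, 193, 184 and 173 CPM in astroglia-like and at 77.2, 74.0, 75.2 and 83.4 in neuroblast-like cells (−1.53 ± 0.10, adjusted p = 5.6e-13). Cox7a2l (1.52 ± 0.11), Uqcrh (0.59 ± 0.10) and Cox7a2 (0.51 ± 0.09) were higher in neuroblast-like cells on either scale, whereas the differences of Atp5a1 (−0.26) and Atp5g3 (−0.21) turned to 0.02 and 0.07 by library size.

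**Figure D3:**
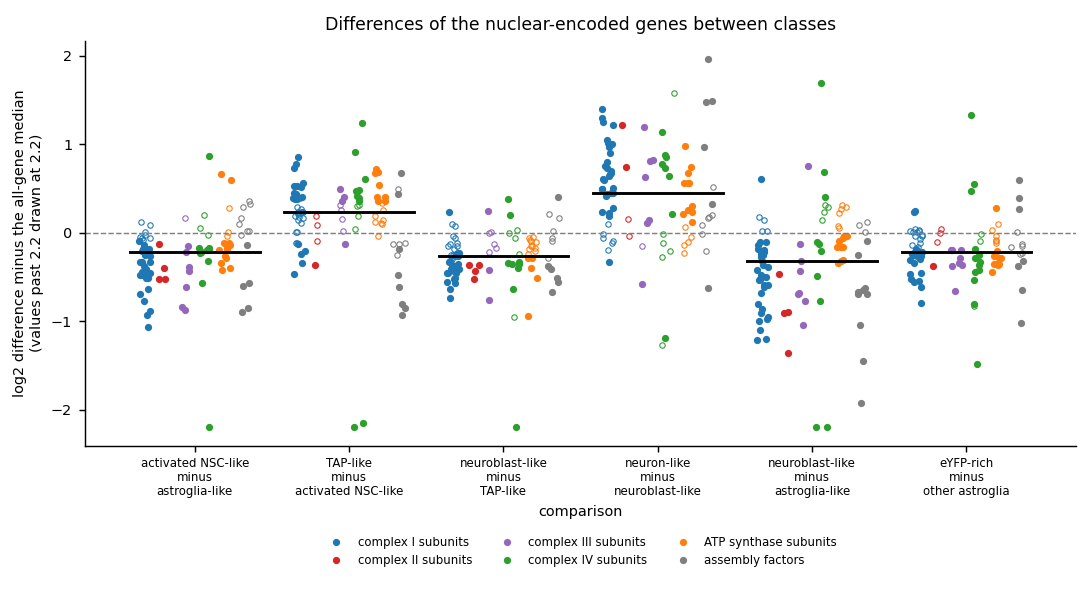
Log2 difference of each gene between classes minus the median over all genes (vertical axis), for 6 comparisons (horizontal axis), coloured by role; filled points passed the test, open points did not, black lines are medians of the genes shown and values past 2.2 are drawn at 2.2. Medians lie below the dashed all-gene line in 4 comparisons and above it from activated NSC-like to TAP-like (0.24) and from neuroblast-like to neuron-like cells (0.46).

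The mt- genes did not move with the nuclear genes at every step. From activated NSC-like to TAP-like cells 11 of 13 were lower and none higher, opposite to the nuclear genes (all genes: 32.4% lower and 24.6% higher), and from TAP-like to neuroblast-like cells 6 were higher and 1 lower (28.2% and 27.9%). From neuroblast-like to neuron-like cells 5 of 13 were higher, close to the 36.7% of all genes, and none lower (29.3%). With TMM factors, of 43 other tested genes for electron carriers, assembly and mitochondrial transcription, 22 were higher and 7 lower from neuroblast-like to neuron-like cells (all genes: 36.7% and 29.3%), and 6 were higher and 23 lower from astroglia-like to neuroblast-like cells (35.7% and 45.1%). Among these, Atpif1, the inhibitor of the ATP synthase, was at 179.6, 134, 152 and 136 CPM in astroglia-like, 1301, 1275, 1217 and 1275 in neuroblast-like and 672, 416, 489 and 443 in neuron-like cells. Ppargc1a, a coactivator of mitochondrial gene expression, was at 93.0, 138, 98.7 and 107 CPM in astroglia-like, 0.161, 0.536, 1.56 and 1.01 in neuroblast-like and 117, 192, 191 and 189 in neuron-like cells. Atpif1 separated the 3 classes without overlap, and Ppargc1a separated neuroblast-like cells from the other two.

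Paralogues of complex IV subunits carried the sharpest class differences. Cox4i2 (ENSMUSG00000009876, GRCm38 chromosome 2, 152754173 to 152765037) encodes the form of subunit 4 that is known from lung and from oxygen sensing, and Cox4i1 the common form. Of 3015 Cox4i2 UMIs, 2542 were in astroglia-like cells, at 76.1, 52.1, 65.1 and 53.7 CPM. Activated NSC-like cells had 9.42, 5.16, 5.09 and 7.08 CPM, TAP-like cells 10 UMIs in 1200 cells and neuroblast-like cells 11 UMIs in 6325 cells. A UMI of Cox4i2 was found in 24.1% of astroglia-like cells (exact Clopper-Pearson 95% interval 22.96 to 25.2%, median depth 6951.5 UMIs) and in 0 of 329 microglia-like cells (5249 UMIs), where a limit set at 3 cells of the total allows a share of up to 0.912%. Intervals and limits cover counting error only. Olfactory ensheathing glia-like cells held 239 UMIs (2.57, 15, 9.99 and 19.1 CPM), lowest in WT young.

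Cox4i2 fell from astroglia-like to activated NSC-like cells by 3.64 ± 0.21 on the log2 scale (adjusted p = 2.1e-13). In every library its level in astroglia-like cells was at least 20 times the median over the named classes. Clusters left unnamed did not enter that median, and the level of Cox4i2 in them was not compared. Its further fall to TAP-like cells, which rests on the 10 UMIs there, lost its call with sums per mouse. Cox4i2 made up 5.32% ± 0.474 (SD, n = 4 libraries) of Cox4i UMIs in astroglia-like cells, so that Cox4i1 remained the main form, at 1246, 1014, 1074 and 1034 CPM. In neuroblast-like cells the same share was 0.0187% ± 0.0172.

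Cox6b2 (ENSMUSG00000051811, chromosome 7, 4751792 to 4753094), the form of subunit 6b known from testis, reached further along the lineage. It was at 45.7, 48.8, 39.2 and 36.7 CPM in astroglia-like and at 46.1, 51.6, 34 and 49.5 in activated NSC-like cells, which overlapped. With TMM factors this difference was −0.36 ± 0.15 (adjusted p = 0.034), it turned to 0.059 by library size, and its call was lost without any of the 4 libraries. TAP-like cells had 9.72, 4.19, 7.21 and 5.84 CPM (−2.26 ± 0.20 against activated NSC-like cells, adjusted p = 9.1e-10) and neuroblast-like cells 1.29, 0.536, 1.70 and 1.68 (−2.47 ± 0.26 against TAP-like cells, adjusted p = 2.4e-08). Each step was without overlap. Olfactory ensheathing glia-like cells stood between, at 25.7, 28.7, 22.8 and 30.3 CPM. Its paralogue Cox6b1 did not show this pattern, at 572, 541, 526 and 529 CPM in astroglia-like and 778, 741, 703 and 691 in neuroblast-like cells.

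**Figure D4:**
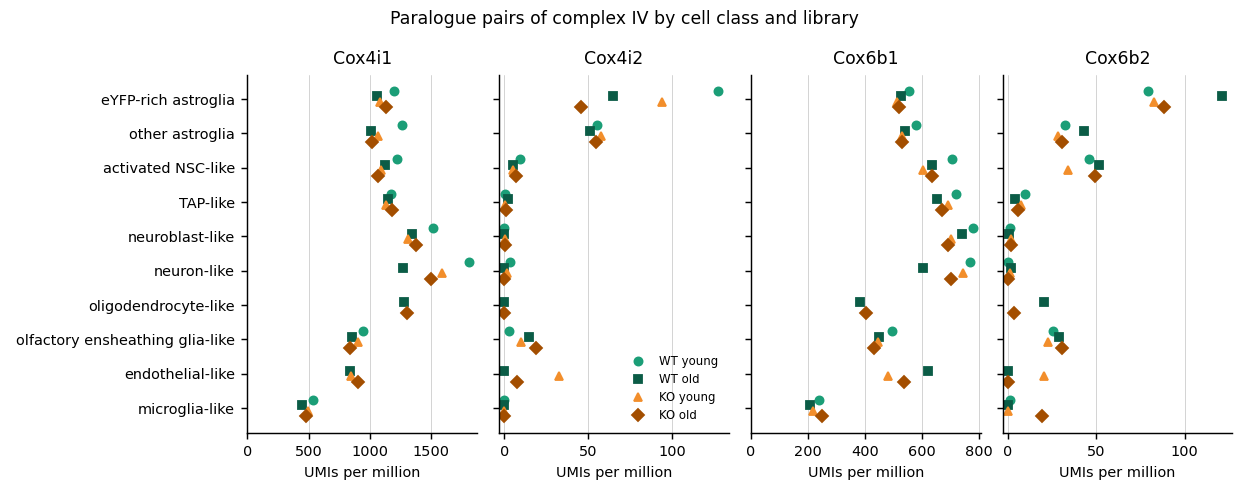
CPM (horizontal axes, each with its own scale) of the paralogues Cox4i1 and Cox4i2 and of Cox6b1 and Cox6b2 by class (rows), with 1 point per library and the astroglia-like class split into its eYFP-rich cluster and the rest. Cox4i2 and Cox6b2 are near 0 in neuroblast-like and neuron-like cells, where Cox4i1 and Cox6b1 are high.

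Rarer paralogues had counts that allow only a description. Cox7b2, known from testis, had 204 UMIs, 155 of them in astroglia-like cells (2.63, 2.96, 4.06 and 4.62 CPM), 30 in olfactory ensheathing glia-like and 0 in 1200 TAP-like, 567 activated NSC-like and 329 microglia-like cells, which allows shares of up to 0.25%, 0.529% and 0.912%. Cox8b, known from heart and muscle, had 54 UMIs, with 21 in 567 activated NSC-like cells (2.48, 5.16, 3.82 and 3.14 CPM) and 21 in 5824 astroglia-like cells. Of 40 UMIs of Cox6a2, the muscle form, 21 came from 4 neuron-like cells and 13 from 9 microglia-like cells. Cox7a1, likewise a muscle form, had 402 UMIs and was at 3.65, 5.19, 6.37 and 4.05 CPM in astroglia-like cells, and Cox8c had 3 UMIs in all.

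Ndufa4l2, a paralogue of the complex IV subunit Ndufa4, had 294 UMIs, and 203 lay in an unnamed cluster of 26 cells led by Vtn, Rgs5, Igfbp7, Mgp and Acta2, where 20 cells had a UMI and the level was 1531 CPM. TAP-like cells, where each library exceeded 4 times the median over classes, held 19 UMIs in 17 of 1200 cells, and endothelial-like cells held 18 UMIs.

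Promoters are shown for Cox6b2, whose level fell at each step from activated NSC-like to neuroblast-like cells, for Cox7b2, most of whose UMIs lay in astroglia-like cells, for the common paralogue Cox7b and for Ndufaf4, the gene with the largest rise in neuron-like cells. The sequences, from RefSeq (GRCm38.p6), are the 150 bases before the start of each gene, 5′ to 3′ on its own strand, and capitals mark the core motif of NRF1 (TGCGCA, its own reverse complement), a factor known to act on respiratory genes, or the ETS motif (CCGGAAG or CTTCCGG). Regions are chr7:4753095-4753244 (minus strand) for Cox6b2, chrX:106015550-106015699 (plus) for Cox7b, chr5:71548206-71548355 (minus) for Cox7b2 and chr4:24897933-24898082 (plus) for Ndufaf4.
Cox6b2: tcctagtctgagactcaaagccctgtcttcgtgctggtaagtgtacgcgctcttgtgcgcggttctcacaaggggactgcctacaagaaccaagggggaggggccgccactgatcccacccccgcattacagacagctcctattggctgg
Cox7b: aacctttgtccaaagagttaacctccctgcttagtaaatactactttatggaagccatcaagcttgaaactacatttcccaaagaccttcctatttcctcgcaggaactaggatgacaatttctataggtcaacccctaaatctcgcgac
Cox7b2: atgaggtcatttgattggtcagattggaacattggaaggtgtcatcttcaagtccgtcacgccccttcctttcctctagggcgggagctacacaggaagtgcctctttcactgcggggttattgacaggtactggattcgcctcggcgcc
Ndufaf4: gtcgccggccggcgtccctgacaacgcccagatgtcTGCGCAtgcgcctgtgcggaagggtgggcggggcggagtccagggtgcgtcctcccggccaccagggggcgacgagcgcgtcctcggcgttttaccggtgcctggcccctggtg
Of these only Ndufaf4 held a motif, 1 NRF1 core. In the 250 bases before the start, 16 of the 78 genes with a listed promoter held the NRF1 core (20.5%, against 7.36% of 27025 genes), 16 the ETS motif (20.5% against 7.83%) and 27 either (34.6% against 14.1%). A match describes these letters only.

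Where a subunit is made from several broadly used genes, the mix changed along the lineage. Cox7a2l took 22.5% ± 2.24 of the UMIs of Cox7a1, Cox7a2 and Cox7a2l in astroglia-like, 37.5% ± 2.57 in activated NSC-like, 26.4% ± 2.88 in TAP-like, 37.0% ± 0.545 in neuroblast-like and 22.1% ± 2.31 in neuron-like cells, and 61.9% ± 4.37 in microglia-like cells, the highest share. Among the ring genes of the ATP synthase, Atp5g2 led with 62.1% ± 1.98 in TAP-like and 48.0% ± 0.627 in neuroblast-like cells. In neuron-like cells Atp5g3 led with 36.2% ± 1.95, against 31.7% ± 1.02 for Atp5g2, and the 2 ranges did not overlap. Of the 31-base words at the 3′ end, 44.1% for Atp5g1 and 34.8% for Atp5g2 also occur in other genes, so the counts of both, and the shares and differences of Atp5g2 given here, are uncertain in that respect.

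Within the astroglia-like class a cluster of 1031 cells was led by Prss56, Thbs4 and Crym and is called eYFP-rich. An eYFP UMI was found in 49.7% of its cells (median depth 6458 UMIs), in 4.64 to 10.0% of the cells of the other 6 clusters and in 4.86% of microglia-like cells (5249 UMIs), which should lack it. Compared with the other astroglia-like cells in the same library, 53 of 93 respiratory genes were lower and 9 higher, where 23.4% and 22.2% of all genes were so. The median was −0.23 against −0.01 and 74 of 93 lay below the all-gene median. By library size 29 were lower and 17 higher (background 17.1% and 32.2%), with a gap to all genes of −0.22 on both scales. DESeq2 called 41 in all, and without the KO young library 31 were lower and 6 higher.

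All 8 complex III subunits, 21 of 36 of complex I and 10 of 16 of complex IV were lower in the eYFP-rich cluster. Cox5a, a core-binding subunit of complex IV, was at 367, 295, 333 and 387 CPM against 638, 502, 553 and 497 in the other astroglia-like cells (−0.81 ± 0.08, adjusted p = 7e-08). The assembly factor Ndufaf4 was at 47.4, 34.1, 44.2 and 59.7 against 75.3, 97.9, 85.0 and 91.7 (−1.02 ± 0.11, adjusted p = 2e-07). Neither gene overlapped between the cell groups. Cox7b2 was lower by −1.49 ± 0.46 (11 UMIs against 144), a call lost in DESeq2.

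In the opposite direction, Cox6b2 was at 79.5, 121, 82.8 and 88.2 CPM in the eYFP-rich cluster and at 32.1, 43.1, 28.1 and 30.9 in the other cells (1.32 ± 0.10, adjusted p = 7.3e-10), without overlap. Its share of Cox6b UMIs was 14.9% ± 2.63 against 5.79% ± 1.07. Ndufaf8, an assembly factor of complex I, was at 108, 123, 105 and 107 against 60.4, 65.0, 67.3 and 67.4 (0.59 ± 0.09), and Cox7a2l at 220, 189, 182 and 192 against 136, 122, 111 and 115 (0.55 ± 0.07). Cox4i2 was at 127, 64.7, 94.2 and 45.5 against 55.5, 51.1, 57.7 and 54.7, higher in 3 of 4 libraries (0.47 ± 0.14, adjusted p = 0.0093), a call lost without the WT young or the KO young library and in DESeq2.

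Age and genotype were compared with UMI sums per mouse (2 mice per group), in astroglia-like cells with a vSVZ hashtag, in neuroblast-like, olfactory ensheathing glia-like and microglia-like cells with any hashtag. In summed level, the astroglia-like cells of the WT young mice stood at 29058 and 28377 CPM and the WT old mice at 26845 and 26304, the KO young mice at 28041 and 28194 and the KO old mice at 26659 and 27235. Old mice lay below young mice of the same genotype without overlap in this class. Neuroblast-like cells with a hashtag did likewise, at 28637 and 28184 CPM in young and 26874 and 24845 in old WT mice, and at 26393 and 27289 against 26271 and 26162 in KO mice. Over all neuroblast-like cells, with or without a hashtag, the KO order turned, at 26312 CPM in the KO young and 26466 in the KO old library. In olfactory ensheathing glia-like cells WT mice were again lower when old (20335 and 21167 against 19359 and 19451), whereas KO mice overlapped (19268 and 20096 when young, 20193 and 19381 when old). Microglia-like cells gave no such comparison, since each old group had 1 mouse with a value. The young WT mice enter both the age and the genotype comparison, so the calls below are not independent.

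In astroglia-like cells of WT mice 12 of 91 genes were lower and 5 higher with age, against 8.09% and 7.71% of 10350 genes, at a median of −0.13 against 0.03 for all genes. Cox4i2 fell from 107 and 110 CPM in WT young mice to 60.3 and 58.5 in WT old mice (−0.87 ± 0.15, adjusted p = 9.8e-05). The eYFP-rich cluster, where Cox4i2 was higher, held 369 of 1268 astroglia-like cells in WT young and 80 of 1079 in WT old, and without it the difference was −0.67 and no longer passed. Ndufv1 and Cox7a2l, lower by −0.42 ± 0.12 and −0.51 ± 0.14, also lost their calls without that cluster. Cox7c, a small subunit of complex IV, was at 145 and 127 CPM in WT young and 246 and 242 in WT old mice (0.86 ± 0.12, adjusted p = 3.2e-06), and this call held under each alternative tried. Leaving out WT young mouse 1, WT young mouse 2 or WT old mouse 2 ended the call of Ndufv1, and leaving out WT young mouse 2 or WT old mouse 2 that of Cox7a2l. Ndufs5 (0.59 ± 0.15) and Ndufaf4 (0.55 ± 0.19) were higher too. Ndufs5 lost its call if WT young mouse 1 was left out (0.27), Ndufaf4 if WT young mouse 2 (0.24) or any WT old mouse was, both lost it without the eYFP-rich cluster, and 54.55% of the 31-base words at the 3′ end of Ndufs5 also occur in other genes. The count was 5 of 91 without WT young mouse 2, 11 without WT young mouse 1, 10 without WT old mouse 1 and 6 without WT old mouse 2.

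In KO mice age changed 1 gene in astroglia-like cells, Uqcrc1 (from 262 and 262 CPM to 211 and 165, −0.44 ± 0.10, adjusted p = 0.0099), against 4.41% of all genes, and leaving out any KO young mouse, or KO old mouse 2, ended that call. Between genotypes in young mice 5 genes passed, against 2.95%: Cox7c (1.22 ± 0.11), Atp5k (0.68 ± 0.10), Ndufa3 (0.62 ± 0.10) and Atp5mpl (0.44 ± 0.10) were higher and Cox7a2l lower (−0.50 ± 0.14) in KO. The calls of Cox7c and Atp5k held under each alternative tried, whereas that of Ndufa3 was lost without WT young mouse 2, that of Atp5mpl without any WT young mouse or KO young mouse 2, and that of Cox7a2l without WT young mouse 2, any KO young mouse or the eYFP-rich cluster. In all, 3 genes passed without WT young mouse 2 and 3 without KO young mouse 2. Cox7c reached 315 and 302 CPM in KO young mice. In old mice none passed in edgeR, against 0.232% (6 at an unadjusted p under 0.05, 0 in DESeq2). The interaction, which sets the age difference of KO mice against that of WT mice (KO minus WT), passed for Cox7c (−1.16 ± 0.15, adjusted p = 6.2e-05) and Atp5k (−0.64 ± 0.13, adjusted p = 0.0092), against 1.01% of all genes. DESeq2 gave no adjusted p for Cox7c there, and the call of Atp5k was lost without WT young mouse 2, WT old mouse 2 or KO young mouse 1, and without either of the last 2 a single gene, 1 of 91, passed.

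The neuroblast-like class gave a short list that overlapped in name. Age in WT mice called Cox7c (198 and 169 CPM in WT young, 365 and 397 in WT old, 1.00 ± 0.17), Cox5a (−0.50 ± 0.15) and Ndufa8 (−0.66 ± 0.20), 3 of 85 genes tested, against 3.44% of 6593 genes. Age in KO mice called none, against 0.364% (3 unadjusted, 0 in DESeq2). Genotype in young mice called Cox7c (1.08 ± 0.14), Ndufa3 (0.59 ± 0.14) and Atp5k (0.57 ± 0.13), against 1.44%, genotype in old mice none, against 0.0607% (3 unadjusted, 0 in DESeq2), and the interaction Cox7c alone (−1.10 ± 0.21, adjusted p = 0.0011), against 0.485%. Of these, Cox5a and Ndufa8 lost their calls by library size and in DESeq2. Ndufa8 also lost its call when any WT mouse was left out, and Cox5a without WT young mouse 1 or any WT old mouse, so that 1 gene passed for age without WT young mouse 1. Ndufa3 and Atp5k lost theirs without WT young mouse 2 or KO young mouse 2, where 1 gene passed for genotype, and Atp5k also without WT young mouse 1. DESeq2 gave no adjusted p for 31, 42, 31 and 61 of the 85 genes for age in WT mice, age in KO mice, genotype in young mice and the interaction. The hashtag call covered 10.3% of neuroblast-like cells.

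In olfactory ensheathing glia-like cells both WT young mice had little Cox7c, 115 and 102 CPM, where WT old mice had 190 and 189, KO young mice 207 and 212 and KO old mice 212 and 183. It was called for age in WT mice (0.78 ± 0.16, adjusted p = 0.020), as 1 of 91 against 1.96% of all genes, and for genotype in young mice (0.98 ± 0.16, adjusted p = 0.0042) together with Atp5k (0.64 ± 0.13), 2 of 91 against 0.585%. The age call was lost without WT young mouse 2 or either WT old mouse (0 genes passed, and 2 without WT young mouse 1), the genotype call of Cox7c without WT young mouse 2, and that of Atp5k without any 1 of the WT mice or KO young mice, each of which left 1 gene. Age in KO mice, genotype in old mice and the interaction called none in edgeR, against 0.278%, 0.387% and 0% of all genes (4, 3 and 16 unadjusted, and 0, 0 and 0 in DESeq2, which gave no adjusted p for 62 of the 91 genes in the interaction). In microglia-like cells genotype in young mice called none of 73, against 0.253% (6 unadjusted, 0 in DESeq2), and 1 without KO young mouse 1.

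In astroglia-like, neuroblast-like and olfactory ensheathing glia-like cells both WT young mice were below the other 6 mice for Cox7c. Microglia-like cells, compared between genotypes in young mice only, had a Cox7c difference in the same direction (1.45 ± 0.42, edgeR adjusted p = 0.22). Higher in KO there too were Ndufa3 (0.85 ± 0.30), Atp5k (0.80 ± 0.34), Atp5mpl (0.27 ± 0.29), mt-Nd3 (0.83 ± 0.26) and mt-Nd4l (1.03 ± 0.25). None of these passed. All 4 genes with a rise in KO young astroglia-like cells have short transcripts, of 540 bases for Cox7c, 321.5 for Atp5k, 433 for Ndufa3 and 435 for Atp5mpl (median of the annotated coding transcripts), and mt-Nd3 and mt-Nd4l, of 348 and 297 bases, showed the same order. Short transcripts are common among the respiratory genes tested, 28 of which have 400 to 600 bases. Ndufa6, of 382 bases, did not pass in that comparison. mt-Nd3 was at 210 and 212 CPM in astroglia-like cells of WT young mice and between 304 and 388 in the other 6 mice. In the 18 other genes of at most 400 bases the median age difference in WT astroglia-like cells was 0.36, against −0.12 in 321 genes of 400 to 600 bases and 0.15 in 5406 genes over 2000 bases, so that it did not fall steadily with length. Cox7c, Ndufa3 and Atp5mpl belong to the 400 to 600 base range, where the median for genotype in young mice was −0.05 in the other genes and 0.02 in the respiratory genes. The WT young library was a single reaction, and the part of transcript length and of that reaction in these differences was not tested. Of the 31-base words at the 3′ end of Cox7c, 37.7% also occur in other genes, so its counts are uncertain in that respect.

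**Figure D5:**
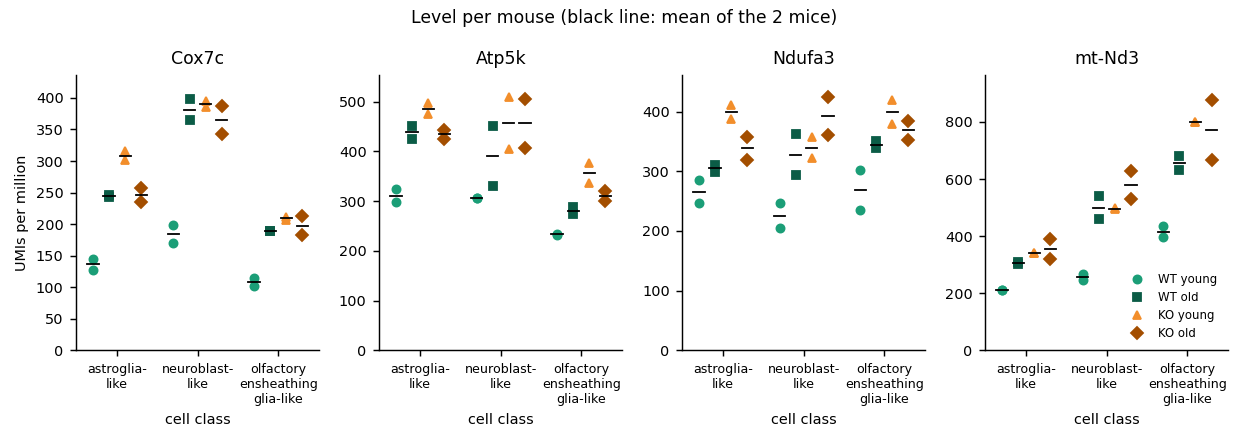
CPM per mouse (vertical axes from 0) of Cox7c, Atp5k, Ndufa3 and mt-Nd3 in 3 classes, with 2 mice per group and black lines at their mean. Both WT young mice are the lowest of the 8 for Cox7c and mt-Nd3 in each class shown.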

How the data were processed

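Single-cell RNA was measured in 4 expression libraries with 4 hashtag libraries, and 1 sample with no stated group was not used. Per the labels, the authors made the expression files with kallisto and bustools and used Scanpy 1.6.0, and the build listed is GRCm38. The deposited expression matrix and hashtag table hold counts, unique molecules per gene and reads per hashtag, with no cell filter and no normalisation. These are 3′ counts of molecules, so levels were mainly compared between classes. Shares within paralogue families also set genes against each other, and differences in how fully each gene is counted were not tested.

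Cells with 100 to 6000 genes, 1000 to 20000 UMIs and under 10% mt- UMIs were kept, predicted doublets removed, and cells clustered with scanpy 1.11.5 (2000 variable genes, 50 components, 15 neighbours, Leiden resolution 1). UMIs were summed per class and library, or per mouse, where at least 20 cells were present, and tested with edgeR 4.0.16 (quasi-likelihood, TMM, Benjamini-Hochberg over all genes tested, threshold 0.05), with the library as a block between classes. DESeq2 1.42.0 was an alternative. The fit was tested on simulated data. Class sums had a biological coefficient of variation of 0.105.

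The genes, lists and tests were chosen with earlier results of these data known. Named genes are the isoform families, 9 core subunits, the 3 largest rises and falls per class comparison, those called for age or genotype (at most 6, otherwise the 3 largest each way) and genes at least 4 times the class median in 1 class. A few further examples (Atpif1 and Ppargc1a among them) were chosen after their values were seen. Sequences are from RefSeq and positions from GENCODE (GRCm38).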

Additional observations from a re-analysis of the deposited data

Results flagged for a closer look

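The age difference itself differed between genotypes for Cox7c and Atp5k, by the interaction test in edgeR (the log2 age change in KO mice minus that in WT mice). In astroglia-like cells the value was −1.16 ± 0.15 for Cox7c (adjusted p = 6.2e-05), with 145 and 127 CPM in the WT young mice and 235 to 315 in the other 6. It was −0.64 ± 0.13 for Atp5k (adjusted p = 0.0092), with 325 and 297 CPM in the WT young mice and 426 to 496 in the other 6. In neuroblast-like cells it was −1.10 ± 0.21 for Cox7c (adjusted p = 0.0011), with 198 and 169 CPM against 343 to 397. In each, the WT young mice, which share 1 reaction and the shorter chase, were the lowest, and their part in the result was not tested.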

How the results depend on the processing

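No paired analysis was possible because hashtag numbers in different groups name different mice. Of the alternatives to counts and levels, 319 left the value within the spread or within 1.5 times, and 67 moved it. Of those for named genes, 1433 kept the call, 197 lost it and 15 reversed the sign. The cause was not tested. Leaving out 1 library gave 38 to 65 calls from astroglia-like to activated NSC-like cells, 35 to 46 from activated NSC-like to TAP-like, 24 to 40 from TAP-like to neuroblast-like, 53 to 60 to neuron-like, 57 to 72 from astroglia-like to neuroblast-like and 37 to 62 in the eYFP-rich cluster. Leaving out 1 mouse gave in astroglia-like cells 5 to 20 (age in WT), 0 to 1 (age in KO), 3 to 5 (genotype in young) and 1 to 3 (interaction), in neuroblast-like cells 1 to 3 (age in WT), 1 to 4 (genotype in young) and 1 (interaction), in microglia-like cells 0 to 1, and in olfactory ensheathing glia-like cells 0 to 2 (age in WT) and 1 to 3 (genotype in young).

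Library size without TMM gave 41 calls from astroglia-like to activated NSC-like cells and 3 for age in KO astroglia-like cells. DESeq2 gave 41 in the eYFP-rich cluster, 5 and 0 for age in WT and KO astroglia-like cells, and 1, 1 and 0 in neuroblast-like cells for age in WT, genotype in young and the interaction. Without the count filter 31 passed from TAP-like to neuroblast-like cells, 4 for the astroglia-like interaction, 8 for age in WT neuroblast-like cells, and 2, 1 and 1 in olfactory ensheathing glia-like cells for age in WT, age in KO and the interaction. Sums per mouse gave 19 from activated NSC-like to TAP-like cells. The strict hashtag call gave 7, 0, 3 and 1 in astroglia-like cells for age in WT, age in KO, genotype in young and the interaction. At least 2000 UMIs gave 31 from TAP-like to neuroblast-like cells, 2 for age in KO astroglia-like and 5 for genotype in young neuroblast-like cells, and a neuroblast-like level of 28169 CPM. Doublets kept gave 2 for age in KO astroglia-like cells, 3 for age in WT olfactory ensheathing glia-like cells and 10945 CPM in microglia-like cells. Under 20% mt- UMIs gave 3 and 1 in olfactory ensheathing glia-like cells (age in WT, genotype in young) and 28428 CPM in activated NSC-like cells. Without mt- genes in the total, activated NSC-like cells stood at 30935 CPM, olfactory ensheathing glia-like cells at 20720 and oligodendrocyte-like cells at 25373. Without mt- and ribosomal genes the level was 35017 CPM in TAP-like, 35432 in activated NSC-like, 29923 in astroglia-like, 27112 in endothelial-like, 10934 in microglia-like, 31172 in neuroblast-like, 21488 in olfactory ensheathing glia-like and 26553 in oligodendrocyte-like cells.

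Signs reversed from astroglia-like to activated NSC-like cells by library size for Cox6a1 (0.059), Ndufa4 (0.11), Cox4i1 (0.048), Cox5a (0.081), Cox7a2 (0.11) and Cox6b2 (0.059, and 0.078 with sums per mouse). Ndufaf7 reversed to 0.15 in neuron-like cells with sums per mouse. From astroglia-like to neuroblast-like cells Atp5a1 was at 0.019 by library size and between −0.31 and 0.023 when 1 library was left out, and Atp5g3 at 0.073 by library size, between −0.23 and 0.050 when 1 library was left out and at 0.032 under 20% mt- UMIs. DESeq2 gave no adjusted p for the interaction of Cox7c (unadjusted 2.8e-08 in astroglia-like and 0.00011 in neuroblast-like cells). At Leiden resolution 0.5 no activated NSC-like class and no eYFP-rich cluster formed, so these had no value. Counting the replicating cluster as neuroblast-like was chosen after seeing the data. Depth limits what the rare paralogues can show, since counts of 0 leave the shares given above possible.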
